A study of Ambystoma mexicanum with 3 samples.

Results

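The comparison described here sets nuclei from romidepsin-treated, amputated axolotl embryo tails (Rom 6 HPA, where HPA is hours post amputation) against nuclei taken at the time of amputation (0 HPA). It covers every gene symbol with at least 200 unique molecular identifiers (UMIs, each marking a captured RNA molecule) in these libraries together, which was 7876 of the 16033 symbols in the feature table. It bears on which changes in RNA level after injury were also present when histone deacetylases were inhibited. The study prepared single-nucleus RNA-Seq libraries from the distal tail tips (labelled as amputation stump) of stage 42 axolotl embryos, with 1 library per condition and nuclei of many embryos pooled in each. For Rom 6 HPA, 2 mm of tail was removed, 100 embryos were kept in 10 μM romidepsin, and 1 mm of the new tail tip was pooled for nuclei. Cont 6 HPA came from 100 amputated embryos in rearing water without romidepsin, and 0 HPA is labelled as control tissue taken at amputation, with the number of embryos not given in the sources used here. No genetic change is named for any group.

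Histone deacetylases (HDACs) remove acetyl groups from lysines of histones and other proteins, and they act in corepressor complexes that hold gene transcription down. Romidepsin inhibits mainly the class I enzymes of this family. Injury induces immediate early genes, whose transcription needs no new protein synthesis and many of which encode transcription factors such as the Fos, Jun and Egr families, and it is followed by feedback inhibitors of the same signals and by matrix remodelling.

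The Rom 6 HPA library held 44735 nuclei and 58827729 UMIs, and the 0 HPA library held 31522 nuclei and 42537606 UMIs. Cont 6 HPA, whose values are set beside them, held 56936 nuclei and 105765943 UMIs. The study's text gives the nucleus numbers of the 6 HPA libraries the other way round, and the labels of the deposited files are followed here. The labels also give the later time in days, whereas the study's methods give hours. Median nuclei had 1079, 1623 and 1019 UMIs in Rom 6 HPA, Cont 6 HPA and 0 HPA. The Rom 6 HPA and 0 HPA libraries shared 469 cell barcodes. UMIs on features without a symbol were 17.4% of Rom 6 HPA and 20.1% of 0 HPA. Markers of the labelled tail tissue were present. Summed levels for muscle were 11605 CPM in Rom 6 HPA and 9783 CPM at 0 HPA. Those for basal epidermis were 25153 and 27827 CPM, of which *Krt5* alone gave 22469 and 25073 CPM. Those for notochord were 3236 and 2930 CPM, though *Foxa1* of that list was listed at 0 in all libraries. The neural progenitor gene *Pax6* was likewise listed at 0 in all libraries. Genes that every cell uses, such as *Eef1a1* and *Hnrnpa1*, were also listed at 0 in all of them, so a 0 says only that no UMI was assigned to that symbol.

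The level of a gene was its UMIs over all nuclei of a library scaled to a common UMI total (CPM), summed over the features that carry its symbol. With 1 library per condition there is no spread between replicates, so there was no test and no p-value. A gene was called higher or lower when its CPM ratio was at least 2 in either direction, and the 95% intervals in brackets cover counting error only. Levels summed over nuclei cannot tell fewer nuclei of a type from less RNA per nucleus, and RNA free in the droplets counts toward them. Time, injury, drug and library preparation cannot be told apart between Rom 6 HPA and 0 HPA. The study dissolved romidepsin in DMSO, and whether Cont 6 HPA embryos had DMSO in their water is not given for these libraries, so with and without romidepsin may also mean with and without this solvent.

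Of the 7876 genes, 124 were at least 2-fold higher in Rom 6 HPA than at 0 HPA (1.57%) and 78 were at least 2-fold lower (0.990%). Most genes lay close together, and 85.6% had a log2 ratio within 0.5 of 0. The ratios were centred below 0, at a median of −0.17 on the log2 scale. Ratios of gene groups below are therefore read against this median. Counts of genes past 2-fold in a list are read against the 1.57% and 0.990% above, and 0 in a short list is near these shares. Lists and their members were chosen with earlier results of these data known, so the share of a list is not independent evidence. In Cont 6 HPA against 0 HPA, the 7876 genes gave 84 higher (1.07%) and 93 lower (1.18%) with a median log2 ratio of −0.18. Both comparisons use the same 0 HPA library, so their values are set side by side and their likeness is not a result. The tail of large ratios was longer upward: 32 genes were at least 4-fold higher and 4 at least 4-fold lower. Of the higher genes, 32 had so few UMIs at 0 HPA that they reached 200 UMIs only through Rom 6 HPA, and these had to differ; the same held for 21 of the lower genes. At the filter's edge, the gene with 200 UMIs had a log2 ratio of −0.41, and the 7 genes with 199 UMIs had ratios of −0.74 to 0.54.

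**Figure D1:**
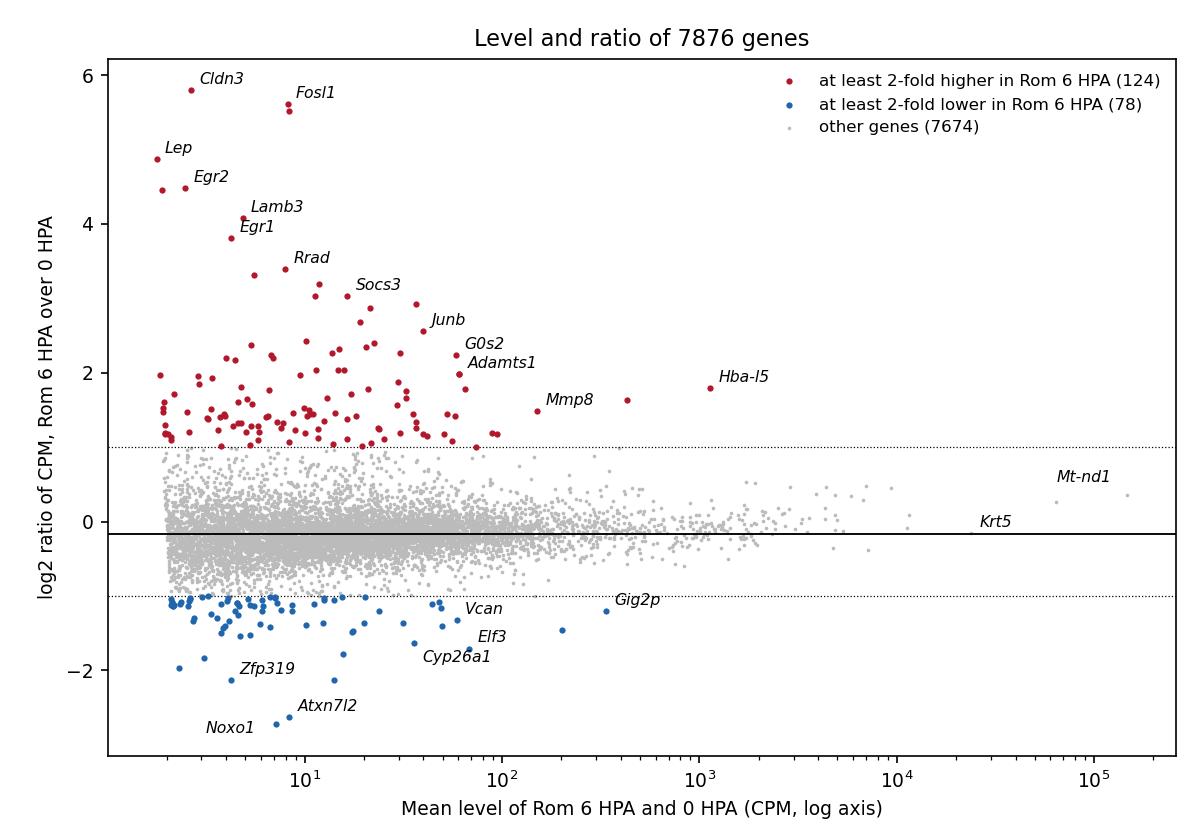
Log2 ratio of CPM in Rom 6 HPA over 0 HPA (y axis) against the mean CPM of both libraries (x axis, log scale) for 7876 genes, 1 point per gene. The solid line is the median of −0.17 and the dotted lines are 2-fold; the 124 higher genes reach a log2 ratio of 5.79 and the 78 lower genes reach −2.73.

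The genes with the highest ratios included immediate early transcription factors, an epithelial junction gene, a hormone and a laminin chain. *Fosl1*, which encodes a Fos-family subunit of the AP-1 transcription factor, had 16.0 CPM in Rom 6 HPA, 19.3 CPM in Cont 6 HPA and 0.329 CPM (0.180 to 0.552) at 0 HPA. *Fosb*, another Fos-family subunit, had 16.2 CPM in Rom 6 HPA, 12.0 CPM in Cont 6 HPA and 0.353 CPM at 0 HPA. Both were thus near absent at amputation. At 6 HPA *Fosl1* was lower and *Fosb* higher with romidepsin than without it, by more than counting error. Their log2 ratios of Rom 6 HPA to 0 HPA were 5.61 (4.85 to 6.48) and 5.52 (4.79 to 6.37). *Cldn3*, a tight junction protein of epithelia, had the highest ratio of all, with 5.22 CPM in Rom 6 HPA, 2.09 CPM in Cont 6 HPA and 0.0940 CPM at 0 HPA (log2 ratio 5.79, 4.42 to 7.68). The 0 HPA value of *Cldn3* rests on 4 UMIs, so its fold is known only roughly. *Fosl1*, *Fosb* and *Cldn3* passed the filter only through Rom 6 HPA, and so had to differ from 0 HPA.

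The zinc finger factors *Egr1*, *Egr2* and *Egr3* were also low at 0 HPA. They passed the filter only through Rom 6 HPA, as did *Rrad* below, and so had to differ from 0 HPA. *Egr1* had 7.94 CPM in Rom 6 HPA, 5.00 CPM in Cont 6 HPA and 0.564 CPM at 0 HPA, and *Egr3* had 3.62, 4.55 and 0.165 CPM in these libraries. *Egr2* had 4.73 CPM in Rom 6 HPA (4.19 to 5.32), 1.72 CPM in Cont 6 HPA and 0.212 CPM at 0 HPA (0.0967 to 0.402). *Egr1* and *Egr2* were higher with romidepsin than in Cont 6 HPA by more than counting error. *Rrad*, a small GTPase that inhibits calcium channels, ran the other way, with 14.6 CPM in Rom 6 HPA, 31.5 CPM in Cont 6 HPA and 1.39 CPM at 0 HPA.

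*Lep*, the hormone leptin, had 3.43 CPM in Rom 6 HPA (2.98 to 3.94), 9.45 CPM in Cont 6 HPA and 0.118 CPM at 0 HPA (0.0382 to 0.274), a log2 ratio of 4.87 (3.62 to 6.51) for Rom 6 HPA and of 6.33 for Cont 6 HPA over 0 HPA. *Lep* was therefore 29.2-fold above its level at amputation in romidepsin, although lower than without it. The gene passed the filter only through Rom 6 HPA, and so had to differ from 0 HPA. *Socs3*, an inhibitor of cytokine receptor signalling, had 29.3 CPM in Rom 6 HPA, 58.1 CPM in Cont 6 HPA and 3.60 CPM at 0 HPA. Genes with large ratios further included *Gadd45b*, a stress-induced gene (21.4 CPM in Rom 6 HPA, 11.2 in Cont 6 HPA and 2.35 at 0 HPA), *Plek2*, a pleckstrin family protein (20.1, 12.6 and 2.47 CPM), *Arhgap1*, a GTPase-activating protein (37.8, 28.4 and 5.15 CPM), and *Timp1*, an inhibitor of matrix metalloproteases (33.1, 22.6 and 5.17 CPM). All 4 were higher in Rom 6 HPA than in Cont 6 HPA and lowest at 0 HPA.

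**Figure D2:**
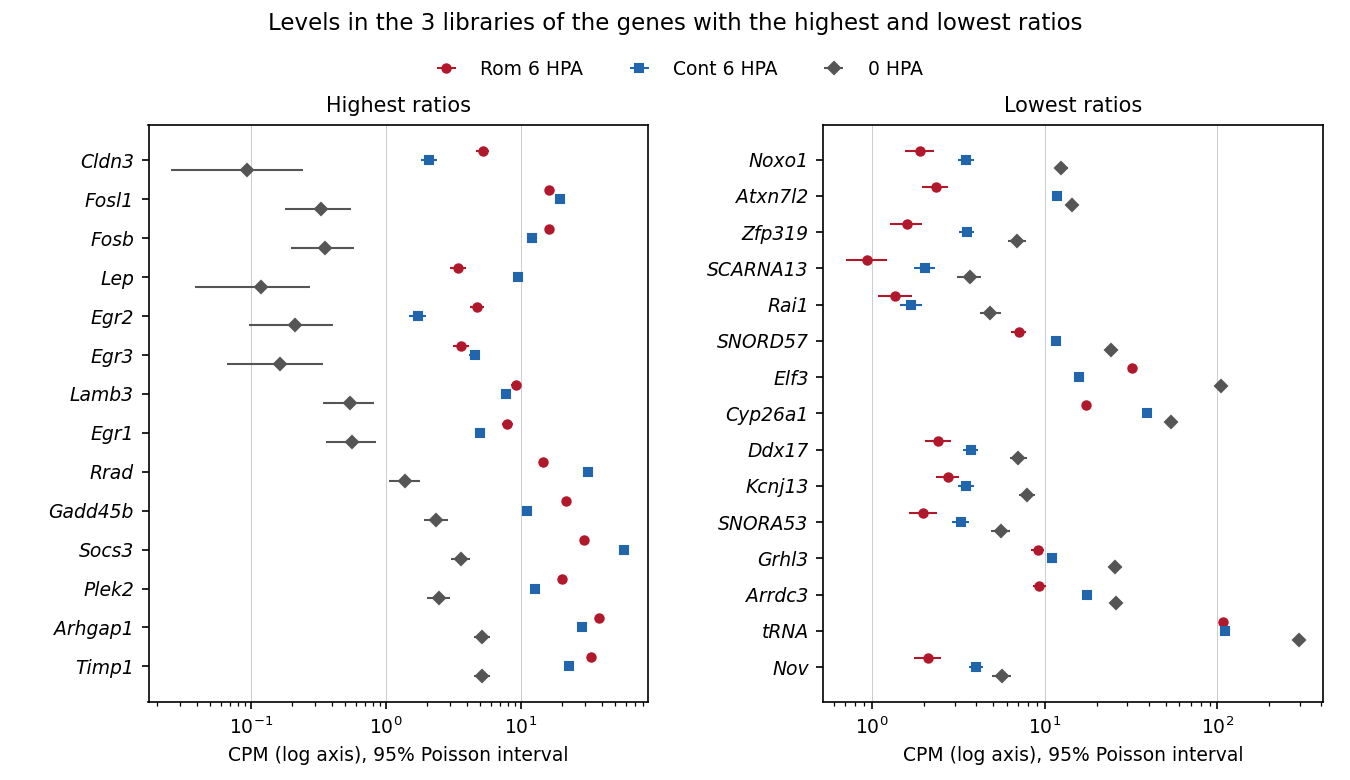
CPM (x axis, log scale) in Rom 6 HPA (circles), Cont 6 HPA (squares) and 0 HPA (diamonds) of the genes named for the highest (left) and lowest (right) ratios of Rom 6 HPA to 0 HPA, with exact 95% Poisson intervals. On the left every 0 HPA point lies below both 6 HPA points, as for *Fosl1* at 16.0, 19.3 and 0.329 CPM; on the right every 0 HPA point lies above both, as for *Noxo1* at 1.89, 3.50 and 12.5 CPM.

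The list of immediate early and AP-1 genes had the largest share of higher genes among the pathway lists. Of its 37 genes 36 were found, 28 passed the filter, 18 were at least 2-fold higher (64.3%, against 1.57% of all genes) and 0 were lower, with a median log2 ratio of 1.22 against −0.17 over all genes. In Cont 6 HPA against 0 HPA, 12 of these genes were higher and the median was 0.70. Without the 7 that passed only through Rom 6 HPA, 11 of 21 were higher. The remaining 8 genes stayed below the filter, with 76 UMIs in Rom 6 HPA and 35 at 0 HPA in all. Among them were *Fos*, with 4 UMIs in Rom 6 HPA and 1 at 0 HPA, and *Atf3*, listed at 0 in all libraries.

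Within the list, the Jun family was higher by varying amounts. *Junb* had 68.1 CPM in Rom 6 HPA, 42.1 CPM in Cont 6 HPA and 11.5 CPM at 0 HPA (log2 ratio 2.56, 2.42 to 2.70). *Jund* had 124 CPM in Rom 6 HPA, against 58.5 CPM in Cont 6 HPA and 54.3 CPM at 0 HPA (log2 ratio 1.20, with 0.11 for Cont 6 HPA over 0 HPA). *Jun* did not reach 2-fold, with 18.9, 18.4 and 13.0 CPM in Rom 6 HPA, Cont 6 HPA and 0 HPA. Thus *Junb* was raised at 6 HPA in both libraries, and *Jund* in the romidepsin library.

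Several genes of the list were like *Jund* in that Cont 6 HPA was close to 0 HPA. *Btg2*, which restrains proliferation, had 76.8 CPM in Rom 6 HPA, 31.3 CPM in Cont 6 HPA and 28.1 CPM at 0 HPA. *Ier5*, an immediate early response gene, had 33.6, 12.5 and 14.1 CPM in these libraries. *Ppp1r15a*, which directs protein phosphatase 1 to the translation factor eIF2, was intermediate, with 34.3 CPM in Rom 6 HPA, 14.6 CPM in Cont 6 HPA and 6.72 CPM at 0 HPA. For *Zfp36*, which promotes mRNA decay, and *Klf4*, a Krüppel-like transcription factor, the 6 HPA levels were nearer each other. *Zfp36* had 5.73 CPM in Rom 6 HPA, 5.58 CPM in Cont 6 HPA and 2.14 CPM at 0 HPA. *Klf4* had 5.35, 4.25 and 1.41 CPM in these libraries. It passed the filter only through Rom 6 HPA, and so had to differ from 0 HPA. *Klf10* was the only gene of the list with a negative ratio among those that passed, with a log2 ratio of −0.14 that became 0.03 when the libraries were scaled by size factors from the median ratio of all genes.

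Inhibitors that feed back on receptor signalling were higher in part. Of 35 genes 28 passed the filter, 9 were higher (32.1%, against 1.57% of all genes) and 0 lower (0.990% of all genes), and the median log2 ratio was 0.24, with 4 higher, 1 lower and a median of −0.11 in Cont 6 HPA over 0 HPA. *Dusp5* and *Dusp1* encode phosphatases that switch off MAP kinases. *Dusp5* had 50.3 CPM in Rom 6 HPA, 44.3 CPM in Cont 6 HPA and 10.5 CPM at 0 HPA, while *Dusp1* had 46.9, 24.7 and 12.8 CPM. *Errfi1*, an inhibitor of the EGF receptor, had 11.1, 6.85 and 2.35 CPM.

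In 4 feedback genes the higher level was seen with romidepsin and Cont 6 HPA was near or below 0 HPA. *Smad7*, the inhibitory Smad of TGF-beta signalling, had 26.6 CPM in Rom 6 HPA, 11.4 CPM in Cont 6 HPA and 9.94 CPM at 0 HPA. *Spry1*, an inhibitor of receptor tyrosine kinase signalling, had 42.5 CPM in Rom 6 HPA, 12.4 CPM in Cont 6 HPA and 18.6 CPM at 0 HPA. *Dusp4* (log2 ratio 1.23) and *Pmepa1* (1.21), an inhibitor of TGF-beta signalling, had log2 ratios of 0.09 and 0.18 in Cont 6 HPA over 0 HPA. At the other end, *Nfkbia*, the inhibitor of NF-kB, was lower than at amputation in both 6 HPA libraries without passing 2-fold, with 29.5 CPM in Rom 6 HPA, 20.6 CPM in Cont 6 HPA and 40.7 CPM at 0 HPA, and *Dkk1*, an inhibitor of Wnt signalling, had 3.08, 5.46 and 5.45 CPM.

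**Figure D3:**
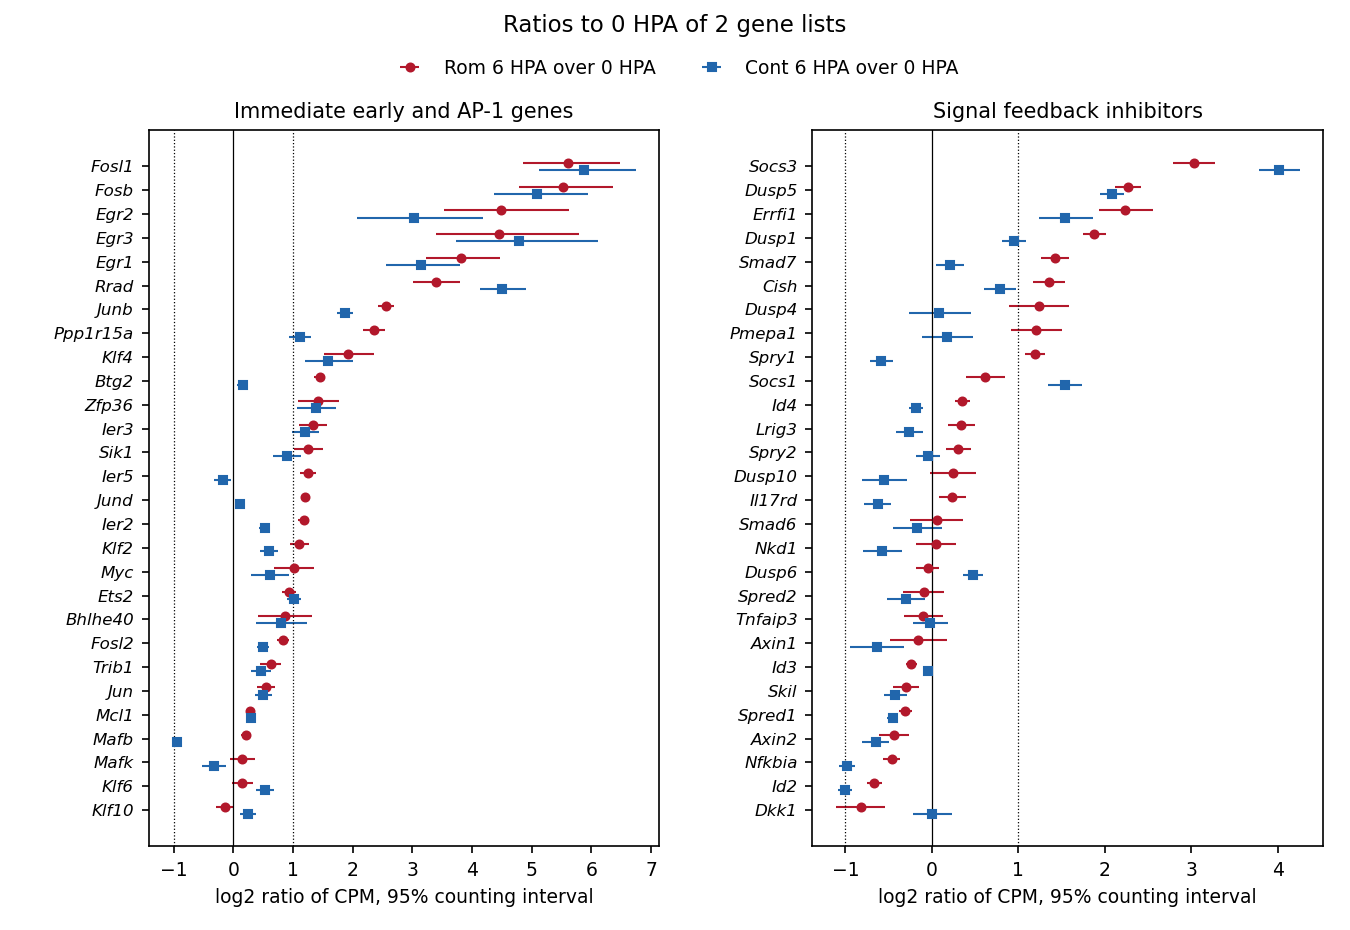
Log2 ratio of CPM to 0 HPA (x axis) in Rom 6 HPA (circles) and Cont 6 HPA (squares) for the genes of the immediate early list (left) and the feedback list (right) that passed the filter, with exact 95% counting intervals; dotted lines are 2-fold. Ratios in Rom 6 HPA reach 5.61 for *Fosl1* and 3.03 for *Socs3*, while *Spry1* has 1.19 in Rom 6 HPA and −0.58 in Cont 6 HPA.

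Matrix remodelling genes were higher in part. Of 26 proteases and inhibitors 17 passed the filter, and 5 were higher (29.4%, against 1.57% of all genes) and 0 lower (0.990% of all genes), with a median log2 ratio of 0.33 and of 0.34 in Cont 6 HPA over 0 HPA. *Mmp8*, a collagenase, had 222 CPM in Rom 6 HPA, 385 CPM in Cont 6 HPA and 79.6 CPM at 0 HPA. *Mmp19* had 14.9, 27.5 and 5.59 CPM, so both metalloproteases were above 0 HPA in romidepsin yet below Cont 6 HPA. *Mmp1* and *Mmp2* lay in the same order and did not reach 2-fold, with log2 ratios of 0.88 and 0.85 in Rom 6 HPA against 1.41 and 1.47 in Cont 6 HPA. *Adamts1*, a protease that cleaves versican, was in the opposite order, with 96.6 CPM in Rom 6 HPA, 46.2 CPM in Cont 6 HPA and 24.4 CPM at 0 HPA.

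*Lamb3* and *Lama3*, chains of the laminin in the epidermal basement membrane, were both higher. *Lamb3* had 9.16 CPM in Rom 6 HPA, 7.71 CPM in Cont 6 HPA and 0.541 CPM at 0 HPA, and *Lama3* had 4.57, 3.94 and 1.18 CPM. Both passed the filter only through Rom 6 HPA and so had to differ, and without them 0 of the 21 other matrix glycoprotein genes that passed were past 2-fold. *Thbs1*, a matricellular protein, was just under the threshold, with 521 CPM in Rom 6 HPA, 507 CPM in Cont 6 HPA and 261 CPM at 0 HPA (log2 ratio 0.99). The 11 collagens and the 14 integrins that passed had 0 genes past 2-fold in either direction, with median log2 ratios of 0.14 and −0.10.

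Of the 14 genes of the hyaluronan list that passed, 0 were higher and 1 was lower, counts near the background of 1.57% and 0.990% of all genes, with a median log2 ratio of 0.05. *Has2*, a hyaluronan synthase, had 4.27 CPM in Rom 6 HPA, 23.2 CPM in Cont 6 HPA and 4.61 CPM at 0 HPA. Its log2 ratio of Rom 6 HPA to 0 HPA was −0.11 (−0.39 to 0.17), so its level in romidepsin differed from that at amputation by less than the counting error, whereas the ratio was 2.33 in Cont 6 HPA. *Has1*, another synthase, had 7.11, 7.43 and 4.35 CPM, close to the same level in both 6 HPA libraries. *Vcan*, which encodes the hyaluronan-binding proteoglycan versican, was the lower gene, with 33.7 CPM in Rom 6 HPA, 53.4 CPM in Cont 6 HPA and 84.4 CPM at 0 HPA (log2 ratio −1.33, −1.41 to −1.25).

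*Krt17*, a keratin of wounded epidermis in mammals, was highest in Cont 6 HPA, as *Has2* was. Unlike *Has2*, *Krt17* was lower in Rom 6 HPA than at 0 HPA by more than counting error (−0.72 to −0.47). It had 16.0 CPM in Rom 6 HPA, 49.3 CPM in Cont 6 HPA and 24.2 CPM at 0 HPA, log2 ratios of −0.59 and 1.02. *Wnt10a*, a Wnt ligand, had 2.75 CPM in Rom 6 HPA, 6.32 CPM in Cont 6 HPA and 1.65 CPM at 0 HPA. Its ratio in romidepsin (0.74, 0.33 to 1.17) was below that in Cont 6 HPA (1.94). *Wnt10a* passed the filter only through Rom 6 HPA, and so had to be above 0 HPA there.

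A further set of genes was higher in Rom 6 HPA than at 0 HPA and not higher in Cont 6 HPA. Hox genes, which pattern the body axis, were among them. *Hoxa3* had 55.0 CPM in Rom 6 HPA, 18.8 CPM in Cont 6 HPA and 24.3 CPM at 0 HPA (log2 ratios 1.18 and −0.37). Of the 14 Hox genes that passed, 2 were higher, against 1.57% of all genes, and 0 lower (1 of 13 higher without the gene that passed only through Rom 6 HPA), with a median log2 ratio of 0.00, while in Cont 6 HPA over 0 HPA 0 were higher, 5 were lower and the median was −0.80. *Hoxb3* had 164 CPM in Rom 6 HPA, 68.8 CPM in Cont 6 HPA and 179 CPM at 0 HPA, and *Hoxc9* had 38.6, 18.5 and 39.3 CPM. Their levels in romidepsin were thus close to those at amputation, while in Cont 6 HPA they were at least 2-fold lower. The nuclei with the most UMIs, set apart below, gave 7611 of 9662 *Hoxb3* UMIs in Rom 6 HPA and 6271 of 7611 at 0 HPA. For *Hoxc9* they gave 2017 of 2272 and 1461 of 1670. These nuclei held 35.36% of all UMIs in Rom 6 HPA, 32.03% in Cont 6 HPA and 39.34% at 0 HPA. Whether this share bears on the levels of the Hox genes was not tested. Another 19 Hox genes were found below the filter, with 668 UMIs in Rom 6 HPA and 370 at 0 HPA in all.

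Outside the Hox list, *Skida1* had 25.4 CPM in Rom 6 HPA, 4.43 CPM in Cont 6 HPA and 6.18 CPM at 0 HPA. *Metrn*, a secreted factor that promotes neurite growth in mice, had 19.8, 4.10 and 6.25 CPM. *Irf7*, a transcription factor of the interferon response, had 15.6, 3.44 and 5.52 CPM, and *Mylip*, a ubiquitin ligase, had 15.5, 3.78 and 5.69 CPM. In all 4 the Cont 6 HPA level was the lowest of the 3 libraries. *Cited2*, a transcriptional coregulator that limits HIF activity, had 12.5 CPM in Rom 6 HPA, 3.61 CPM in Cont 6 HPA and 5.34 CPM at 0 HPA. *Ankrd37*, a hypoxia-responsive gene in human cells, had 7.58, 1.73 and 3.10 CPM.

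*Cited2* and *Ankrd37* belong to the hypoxia and glycolysis list, which had a median log2 ratio of 0.12 and of 0.09 in Cont 6 HPA over 0 HPA. Of its genes 26 passed, 3 were higher (11.5%, against 1.57% of all genes) and 0 lower (0.990% of all genes). The third was *Slc2a1*, a glucose transporter, with 84.1 CPM in Rom 6 HPA, 37.8 CPM in Cont 6 HPA and 31.4 CPM at 0 HPA. *Hif1a*, the oxygen-regulated factor itself, had 56.2 CPM in Rom 6 HPA, 52.1 CPM in Cont 6 HPA and 56.2 CPM at 0 HPA. *Ldha*, a glycolytic enzyme, had 251, 254 and 191 CPM, a ratio of like size with and without romidepsin.

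Genes of growth arrest and cell death were higher in 4 cases. *G0s2*, an inhibitor of lipolysis, had 96.8 CPM in Rom 6 HPA, 31.4 CPM in Cont 6 HPA and 20.5 CPM at 0 HPA. *Gadd45g*, a relative of *Gadd45b*, had a log2 ratio of 2.40 in Rom 6 HPA and of 1.74 in Cont 6 HPA. These 2 genes and *Gadd45b* were the 3 higher genes (23.1%, against 1.57% of all genes) among the 13 of the p53 and arrest list that passed. Of the 13, 0 were lower (0.990% of all genes). *Pmaip1*, a pro-death member of the BCL2 family, had 17.1, 9.18 and 3.17 CPM. It was the only gene past 2-fold of the 18 in the NF-kB and cell death list (5.56%, against 1.57% of all genes higher). *Cdkn1a*, the best known p53 target, stayed below the filter with 48 UMIs in Rom 6 HPA and 11 at 0 HPA.

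Secreted signals were sparse. *Areg*, a ligand of the EGF receptor, had 23.6 CPM in Rom 6 HPA, 20.5 CPM in Cont 6 HPA and 5.78 CPM at 0 HPA, and *Hbegf*, another such ligand, had 46.4, 39.7 and 26.6 CPM without passing 2-fold. Of 33 cytokine and chemokine genes 10 passed the filter, of which *Lep* was higher, having passed only through Rom 6 HPA, and the other 9 were not past 2-fold. The chemokines *Cxcl2* and *Ccl28*, which are not on the list, were lower, with log2 ratios of −1.10 and −1.06, and *Cxcl2* passed the filter only through 0 HPA. Among the 19 found below it, *Il11* had 31 UMIs in Rom 6 HPA, 78 in Cont 6 HPA and 1 at 0 HPA. *Il8* had 5.63 CPM in Rom 6 HPA, 6.69 CPM in Cont 6 HPA and 2.84 CPM at 0 HPA, a log2 ratio of 0.98.

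The Notch pathway had 0 of 10 genes past 2-fold and a median log2 ratio of 0.43, against −0.48 in Cont 6 HPA over 0 HPA. *Notch1*, a receptor, had 7.22 CPM in Rom 6 HPA, 3.23 CPM in Cont 6 HPA and 5.55 CPM at 0 HPA, and *Dll1*, a ligand, had 16.8, 7.90 and 11.6 CPM. *Hes1*, a transcriptional target, was the exception among these, with 13.3, 13.6 and 7.99 CPM. Thus *Notch1* and *Dll1* were above 0 HPA in romidepsin and below it in Cont 6 HPA, and *Hes1* was above it in both. Other members differed. *Jag1*, another ligand, was below 0 HPA in both (log2 ratios −0.34 and −1.02). *Nrarp*, another target, had log2 ratios of 0.55 in Rom 6 HPA and −0.39 in Cont 6 HPA. Of the 10 genes, 7 had a positive ratio in Rom 6 HPA and 3 a negative one.

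The lowest ratio was that of *Noxo1*, which organizes an NADPH oxidase, with 1.89 CPM in Rom 6 HPA (1.55 to 2.27), 3.50 CPM in Cont 6 HPA and 12.5 CPM at 0 HPA (11.4 to 13.6). *Atxn7l2* had 2.33 CPM in Rom 6 HPA, 11.8 CPM in Cont 6 HPA and 14.4 CPM at 0 HPA, a log2 ratio of −2.63 (−2.91 to −2.36) with −0.29 in Cont 6 HPA. *Noxo1* was thus low in both 6 HPA libraries and *Atxn7l2* in the romidepsin library. *Zfp319* and *Rai1* followed, with log2 ratios of −2.13 and −1.83 in Rom 6 HPA and −0.97 and −1.52 in Cont 6 HPA. *Noxo1*, *Zfp319* and *Rai1* passed the filter only through 0 HPA, and so had to differ between Rom 6 HPA and 0 HPA.

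*Cyp26a1*, which degrades retinoic acid, had 17.4 CPM in Rom 6 HPA, 38.9 CPM in Cont 6 HPA and 53.9 CPM at 0 HPA (log2 ratio −1.63, −1.74 to −1.52). *Snai2*, a transcription factor of epithelial to mesenchymal transition, had 11.2, 23.1 and 28.8 CPM. *Gmnn*, geminin, which blocks relicensing of replication origins, had 27.2, 57.9 and 71.9 CPM. *Arrdc3*, an arrestin-domain protein, had 9.28, 17.6 and 25.8 CPM. In these genes Cont 6 HPA lay between the other libraries, and nearer to 0 HPA on the log scale.

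Others of the lowest genes were *Ddx17*, an RNA helicase (log2 ratio −1.54), *Kcnj13*, a potassium channel (−1.52), *Nov*, a matricellular protein (−1.43), and a feature named tRNA (107.7 CPM in Rom 6 HPA, 110.5 CPM in Cont 6 HPA and 297 CPM at 0 HPA). Features named as the small nucleolar RNAs SNORD57 and SNORA53 and the Cajal body RNA SCARNA13 also belonged to them. Their log2 ratios were −1.78, −1.49 and −1.97. Small nucleolar RNAs guide modification of ribosomal RNA. Whether these UMIs came from the small RNAs themselves or from longer transcripts was not tested. SNORA53 and SCARNA13 passed the filter only through 0 HPA, and so had to differ.

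*Elf3* and *Grhl3*, transcription factors of differentiating epithelia, were lower in both 6 HPA libraries. *Elf3* had 32.0 CPM in Rom 6 HPA (30.6 to 33.5), 15.8 CPM in Cont 6 HPA and 105 CPM at 0 HPA (102 to 108), so its level was lower than at amputation by a smaller factor with romidepsin. *Grhl3* had 9.09, 11.1 and 25.5 CPM, and the mucin gene *Muc5b* had 6.94, 10.9 and 17.9 CPM. These are the 3 lower genes (23.1%, against 0.990% of all genes) of the 13 surface epithelium markers that passed, none of which was higher, and the median log2 ratio was −0.34. The summed level of the 14 markers found was 2934 CPM in Rom 6 HPA, 3032 CPM in Cont 6 HPA and 3639 CPM at 0 HPA, and *Grhl1* was listed at 0 in all of them. The share of surface epithelium nuclei in these ratios was not tested.

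Some erythroid genes were higher in Rom 6 HPA than at 0 HPA. *Alas2*, the first enzyme of heme synthesis in red cells, had 32.6 CPM in Rom 6 HPA, 31.5 CPM in Cont 6 HPA and 9.45 CPM at 0 HPA. *Hba-l5*, a globin, had 1761, 2014 and 508 CPM, and *Hbb*, another globin, had 3.33, 3.21 and 1.01 CPM. Of the 18 erythroid markers listed, 13 were found and 6 passed, with a median log2 ratio of 0.69 and of 0.77 in Cont 6 HPA over 0 HPA. Of these 6, *Alas2* and *Hbb* were higher (33.3%, against 1.57% of all genes) and 0 lower (0.990% of all genes). *Hbb* passed the filter only through Rom 6 HPA (1 of 5 higher without it), and *Hba-l5* is not on the list. The summed level of the list was 116 CPM in Rom 6 HPA, 116 CPM in Cont 6 HPA and 66.7 CPM at 0 HPA. The myeloid markers had 0 of 8 genes past 2-fold, near the shares over all genes, with a median log2 ratio of 0.32. Of the 8, 5 had a positive ratio and 3 a negative one. *Lcp1* had the highest ratio of them, with 9.47, 8.74 and 4.98 CPM, while *Laptm5* had 365, 349 and 393 CPM. The summed levels of the list were 417, 403 and 432 CPM, and *Spi1* was listed at 0 in all libraries. The blood content of the tissue pieces was not tested, and *Hmox1* (log2 ratio 1.77), which degrades heme, stood at 10.2, 8.38 and 2.99 CPM.

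The 16 muscle markers that passed had 0 genes past 2-fold and a median log2 ratio of 0.01. Muscle genes nevertheless were 5 of the 10 largest gains in absolute CPM. *Mylpf*, a fast muscle myosin light chain, had 10877 CPM in Rom 6 HPA, 10646 CPM in Cont 6 HPA and 7934 CPM at 0 HPA, and *Ckm*, muscle creatine kinase, had 5078, 4537 and 3680 CPM. *Actc1b*, *Ocm.2* and *Pvalb*, an actin and calcium-binding proteins of muscle, were likewise among the 10 largest gains, as was *Col1a1*, with 3341, 2777 and 2431 CPM. The largest gain of all was that of *Mt-nd1*, a mitochondrial transcript. *Mt-nd1* had 165960 CPM in Rom 6 HPA, 172720 CPM in Cont 6 HPA and 129310 CPM at 0 HPA. Mitochondrial symbols together held 18.96% of all UMIs in Rom 6 HPA, 19.77% in Cont 6 HPA and 14.96% at 0 HPA. How much of this was RNA free in the droplets was not tested, so the gain cannot be read as expression in nuclei. Among the largest losses were *Krt5*, a basal keratin (22469, 24805 and 25073 CPM), *Actb* (10982, 12373 and 11678 CPM) and *Cirbp*, a cold-inducible RNA-binding protein (5105, 5814 and 5559 CPM). The ratios of the genes in this paragraph were all under 2-fold.

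The enzymes that romidepsin targets, and the complexes they act in, had no gene past 2-fold among those that passed the filter. *Hdac1* had 58.6 CPM in Rom 6 HPA, 60.2 CPM in Cont 6 HPA and 68.6 CPM at 0 HPA (log2 ratio −0.23), *Hdac2* had 30.8, 29.6 and 33.3 CPM (−0.11), and *Hdac3* had 8.06, 8.81 and 11.2 CPM (−0.47). Of the 11 deacetylases and sirtuins that passed, 0 were past 2-fold in either direction and the median was −0.26. Across the 5 lists of chromatin genes, which also hold corepressors, acetyltransferases, methylation enzymes and remodellers, 0 of 101 genes were past 2-fold. This is near the background of 1.57% higher and 0.990% lower among all genes. Their median log2 ratio was −0.26 in Rom 6 HPA and −0.56 in Cont 6 HPA over 0 HPA. In Rom 6 HPA 33 of the 101 lay above the median of all genes. The lowest ratio among them was −0.94, for *Smarcb1*, a remodeller subunit, with 2.65 CPM in Rom 6 HPA and 5.08 CPM at 0 HPA. The study reports nuclei, found in every library, in which chromatin genes and transcripts with repeats were higher than in the others. The share of such nuclei in each library was not tested.

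The replication and mitosis lists had 0 of 54 members past 2-fold, near the background of 1.57% higher and 0.990% lower among all genes. Their median log2 ratio was −0.29, and 12 of the 54 lay above the median of all genes. Cell cycle genes outside these lists were lower, namely *Gmnn* (above), *Fbxo5*, an inhibitor of the anaphase-promoting complex (5.47 CPM in Rom 6 HPA, 7.67 CPM in Cont 6 HPA and 11.9 CPM at 0 HPA), and *Ccnb1.2*, named as a mitotic cyclin B (5.22, 6.75 and 12.1 CPM), all chosen after their values were seen. *Mki67* had 272 CPM in Rom 6 HPA, 260 CPM in Cont 6 HPA and 335 CPM at 0 HPA, and *Aurka*, a mitotic kinase, had 15.8, 18.6 and 29.1 CPM. *Cdc25b*, a phosphatase that activates cyclin-dependent kinases, stood apart, with 188 CPM in Rom 6 HPA, 85.2 CPM in Cont 6 HPA and 104 CPM at 0 HPA (log2 ratio 0.86). The ribosome, translation, proteasome and respiratory chain lists held 197 genes with 0 past 2-fold, against 1.57% higher and 0.990% lower among all genes. Their median was −0.18, close to that of all genes. The splicing factor list had 2 lower genes of 24 (8.33%, against 0.990% of all genes), *Ddx17* and the kinase *Clk2* (log2 ratio −1.10), and a median of −0.35.

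The remaining lists each held few genes past 2-fold. In lists this short, even 1 or 2 genes are a larger share than the 1.57% higher or 0.990% lower among all genes. The interferon list had 2 of 8 higher (1.57% of all genes were), *Irf7* and *Irf1*, and 0 lower. *Irf1*, another interferon-related transcription factor, had 22.7 CPM in Rom 6 HPA, 11.5 CPM in Cont 6 HPA and 4.70 CPM at 0 HPA. The median log2 ratio of the interferon list was −0.17, close to that of all genes. Of the 8, 3 had a positive ratio and 5 a negative one, down to −0.61 for *Parp14*. *Cyr61*, a matricellular protein, was the 1 higher gene of 18 in the Bmp and Tgf-beta list, with 101 CPM in Rom 6 HPA, 54.7 CPM in Cont 6 HPA and 29.2 CPM at 0 HPA. *Ddit3*, a transcription factor of endoplasmic reticulum stress, was the 1 of 25 in its stress list (9.45, 5.22 and 3.55 CPM), and *Rhob*, a small GTPase, the 1 of 26 in the cytoskeleton list (52.3, 49.1 and 20.7 CPM). *Metrn* and *Ngfr* were 2 of 7 (28.6%, against 1.57% of all genes higher) in the neurotrophin list, and *Areg* was 1 of 13 in the Fgf and Egf list. *Hmox1* was the 1 higher of 24 in the oxidative stress list. *Cyp26a1* was the 1 lower of 13 in the hedgehog and retinoic acid list. The keratin and epidermal junction list had 2 lower of 24 and 1 higher, *Cldn3*, which passed only through Rom 6 HPA. No gene was past 2-fold among 18 of the Wnt pathway, 27 chaperones, 19 of cholesterol synthesis, 25 of autophagy and lysosome, 11 neuronal genes under REST control, 6 histone genes and 2 circadian genes. The endothelial (10), fibroblast (10), notochord (6), neuron (10), spinal cord progenitor (5) and melanocyte (5) markers that passed likewise held 0 past 2-fold, with list medians of −0.31 to 0.20. In lists this short a count of 0 is near the shares over all genes. The basal epidermis markers had 2 higher of 10, both laminin chains that passed only through Rom 6 HPA (0 of 8 without them), and the ciliated and ionocyte markers had 1 lower of 18, *Foxi1*, an ionocyte transcription factor (log2 ratio −1.10).

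**Figure D4:**
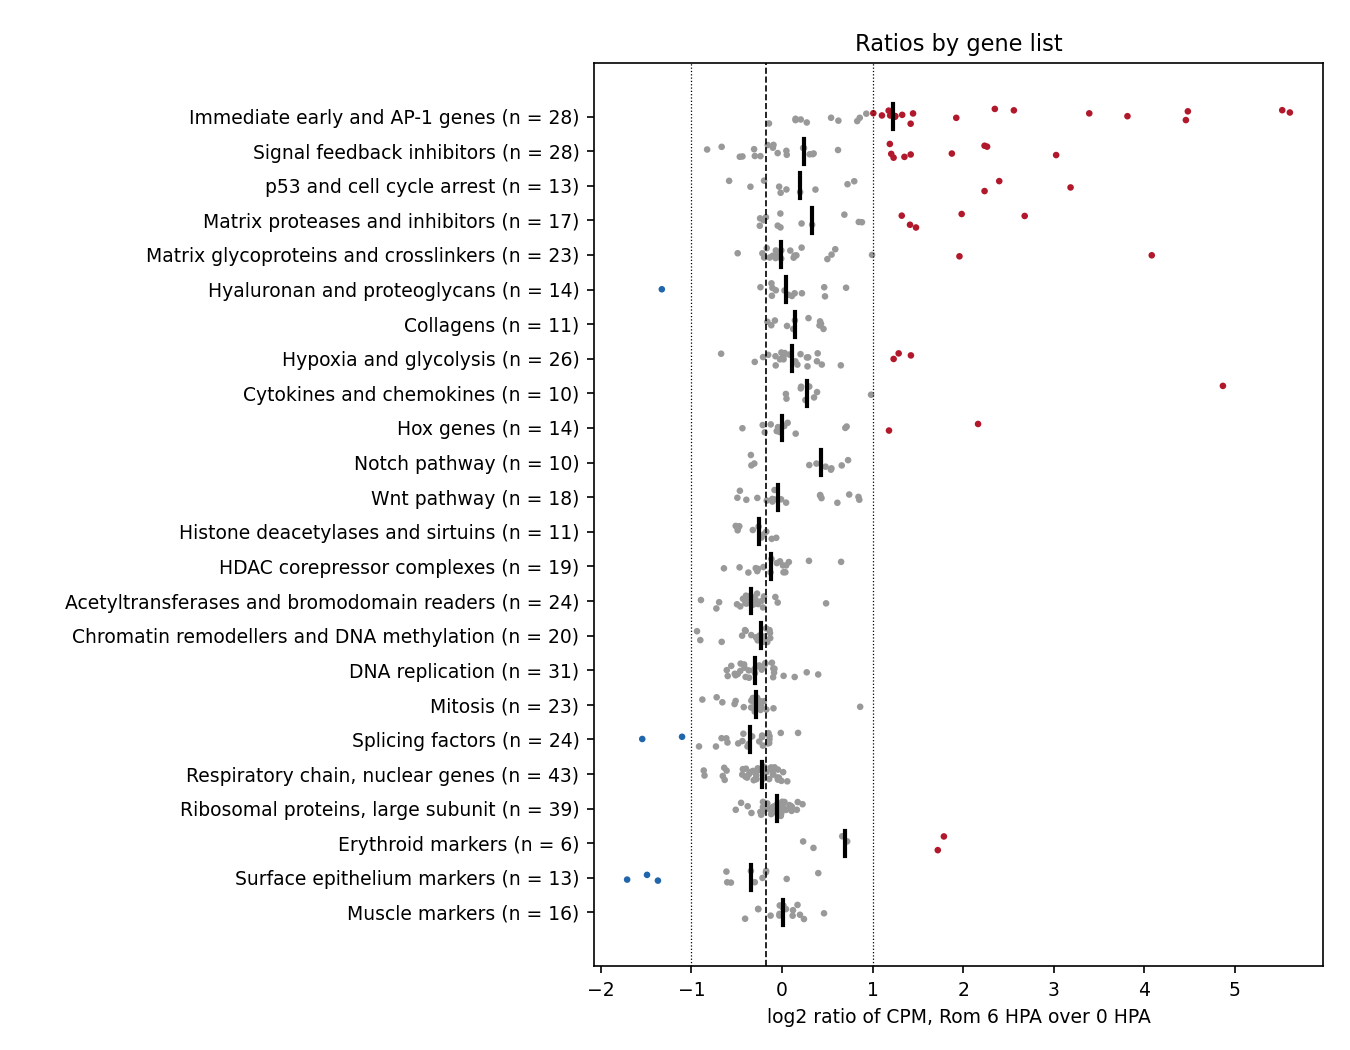
Log2 ratio of CPM in Rom 6 HPA over 0 HPA (x axis) for genes of 24 lists that passed the filter, 1 point per gene, coloured where past 2-fold (dotted lines), with the list median as a bar and the median of all genes (−0.17) as a dashed line. The immediate early list has the highest median (1.22) of those shown. Of the chromatin and proliferation lists, the corepressors have a median above the dashed line (−0.12). The others lie below it, down to −0.34 for the acetyltransferases. The large-subunit ribosomal proteins have a median of −0.05.

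Of the 29 genes that the study chose for their response to romidepsin, 28 were found and 24 passed. Of these, 11 were higher (45.8%, against 1.57% of all genes) and 1, *Cyp26a1*, was lower (4.17%, against 0.990%). Without *Lep*, which passed only through Rom 6 HPA, 10 of 23 were higher. The median log2 ratio was 0.58, and −0.03 in Cont 6 HPA over 0 HPA. The study picked these genes for a difference between romidepsin and control tails at the same time and dose in another assay and then examined them in these libraries, so their direction here is not independent evidence. *Ngfr*, a neurotrophin receptor, had log2 ratios of 1.06 in Rom 6 HPA and −0.02 in Cont 6 HPA over 0 HPA. *Hpx*, which binds heme, had 6.90, 7.03 and 2.26 CPM, and so was equally high without romidepsin. *Ezh2*, a histone methyltransferase, was not past 2-fold, with 10.7, 15.6 and 18.7 CPM.

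The ratios were also taken in the 20% of nuclei with the most UMIs in each library and in the other nuclei. The lowest UMI number within that 20% was 1222 in Rom 6 HPA and 1526 at 0 HPA, so the parts are not of equal depth between libraries. All 124 higher genes had a positive ratio in both parts, and 112 were past 2-fold in both. All 78 lower genes had a negative ratio in both, but 25 were past 2-fold in both, with a median log2 ratio of −1.34 in the deep nuclei and −0.97 in the others. The parts are of the same libraries, and together they make the sums on which the genes were called. *Lep* had a log2 ratio of 6.16 in the deep nuclei and 4.26 in the others, and *Egr2* had 3.53 and 5.44, in both cases on few UMIs at 0 HPA.

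**Figure D5:**
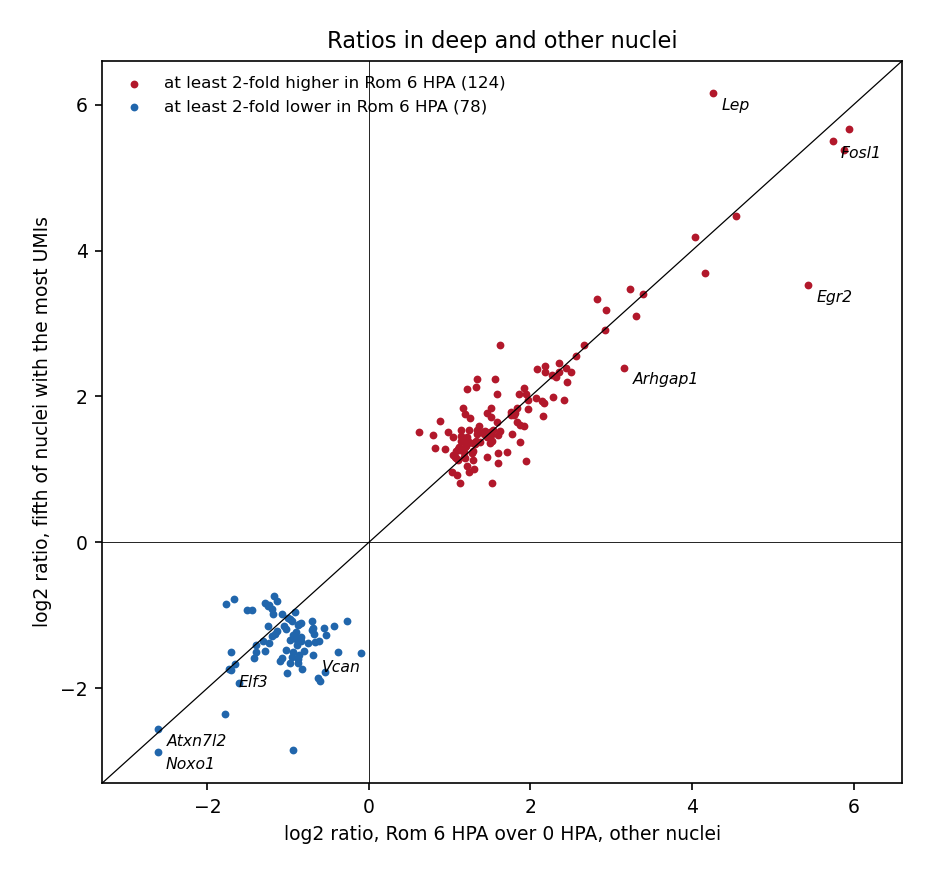
Log2 ratio of CPM in Rom 6 HPA over 0 HPA in the 20% of nuclei with the most UMIs (y axis) against that in the other nuclei (x axis) for the 124 higher and 78 lower genes, with the line of equal ratios. Points in the upper right are higher in both parts and points in the lower left lower in both.

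The number of lower genes depended on the scaling and the depth more than the number of higher genes. Size factors, which add 0.17 to every log2 ratio, gave 173 higher and 37 lower genes, so that 82.4% of the called genes were higher, against 61.4% when scaled to the totals. In 31 lower and 100 higher genes the whole counting interval lay past 2-fold.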

How the data were processed

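Nuclei isolation, 10x Genomics library preparation (v3 chemistry) and sequencing were done for the study, and the authors aligned the reads against axolotl transcripts, with Cell Ranger named as the counting software (3.0.2 in the matrix headers, 6.0.0 in the submitters' processing notes). The deposited values are whole-number counts of UMIs per nucleus and feature, without normalization, 1 matrix per library. No genome build was named, and no coordinates are given. All deposited nuclei were kept, doublets included. Of 91648 features, 36348 carry a gene symbol. UMIs were summed by symbol and divided by the library total (CPM). Features of near-identical genes that share a symbol, or share reads, cannot be separated. Of the 7876 symbols tested, 76.4% matched a symbol or synonym in the axolotl RefSeq table (assembly UKY_AmexF1_1).

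CPM had exact Poisson intervals and CPM ratios exact conditional (Clopper-Pearson) intervals, at 95%, which were checked on simulated counts. With total UMIs of 42537606 to 105765943 per library, depth limits mainly genes with few UMIs at 0 HPA. Genes named are the 15 highest and 15 lowest ratios, leaving out repeats, microRNAs and clone IDs, the 10 largest CPM gains and losses, up to 6 genes past 2-fold and up to 4 others of each list (a few members beyond these were added after their values were seen), the genes at the filter's edge and the study's 29 genes. There were 44 pathway and 12 marker lists. Members and lists were chosen with earlier results of these data known. Results of some genes are not reported here. Alternatives in scaling, filter, features and nuclei are given in the closing section. Analyses used Python 3.11, numpy, scipy and pandas.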

Additional observations from a re-analysis of the deposited data

Results flagged for a closer look

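Features that carry no symbol are outside the comparison of genes. At least 200 UMIs were counted for 7916 of them, of which 129 were at least 2-fold higher (1.63%) and 319 at least 2-fold lower (4.03%) in Rom 6 HPA than at 0 HPA, with a median log2 ratio of −0.25. The feature AC_02200017428.1 had 51.2 CPM in Rom 6 HPA, 50.8 CPM in Cont 6 HPA and 0.682 CPM at 0 HPA (log2 ratio 6.23), above that of any named gene. The feature AC_02200038042.1 had 5.86, 6.33 and 0.118 CPM (log2 ratio 5.64). Both were above 0 HPA in the romidepsin and control libraries. They reached 200 UMIs only through Rom 6 HPA, and so had to differ between Rom 6 HPA and 0 HPA. Among the lower features, AC_02200013884.1 had 0.595 CPM in Rom 6 HPA, 0.898 CPM in Cont 6 HPA and 8.67 CPM at 0 HPA (log2 ratio −3.87), below that of any named gene, and AC_02200024952.1 had 1.89 CPM in Rom 6 HPA and 11.2 CPM at 0 HPA (−2.57). Both of these lower features reached 200 UMIs only through 0 HPA, and so had to differ as well. The features named here were listed because the signal lies in data that the comparison of genes does not use. What the features encode is not known from the files.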

How the results depend on the processing

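With 78 lower genes under the settings used, the lower count was 37 under size factors, 24 in the nuclei outside the deepest 20% and 31 when the whole counting interval had to lie past 2-fold. A minimum of 1000 UMIs gave 63 higher and 23 lower genes and a minimum of 20 UMIs gave 223 and 358, and both differ by construction in the genes tested. A point ratio of 1.5 gave 279 higher and 518 lower genes. The other settings (totals without ribosomal protein and mitochondrial symbols, the feature with the most UMIs, the deepest 20% of nuclei, each nucleus weighted alike) kept both counts within 1.5-fold, at 101 to 134 higher and 57 to 82 lower. No ratio of a gene called past 2-fold changed sign under any setting that gave it a value. Of the 124 higher genes, 124 stayed past 2-fold under size factors and 121 with nuclei weighted alike, and of the 78 lower genes 37 and 55 did. No paired analysis was possible because each condition has 1 library, and for the same reason no replicate could be left out. Depth limits genes near absent at 0 HPA, whose fold is known within wide counting intervals.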

Other observations

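Features named as small nucleolar and Cajal body RNAs were a group chosen after its values were seen. They had 33 members past the filter. Of these, 11 were at least 2-fold lower (0.990% of all genes were) and 0 higher in Rom 6 HPA than at 0 HPA. Whether the UMIs came from the small RNAs themselves or from longer transcripts was not tested. Among the lower members, SCARNA13, SNORD36 and SNORA53 passed the filter only through 0 HPA, and so had to differ. With size factors 5 of the 33 members stayed at least 2-fold lower. Their median log2 ratio was −0.84, against −0.17 over all genes, and −0.68 in Cont 6 HPA over 0 HPA. The summed level was 159.5 CPM in Rom 6 HPA, 190.4 CPM in Cont 6 HPA and 293 CPM at 0 HPA. In the deepest 20% of nuclei the median was −0.87 and in the other nuclei −0.50. SNORA23 had 20.2, 22.3 and 39.5 CPM and SNORA44 had 18.2, 26.6 and 34.6 CPM, and SNORA35 was the member with a positive ratio (0.10).

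Mitochondrial transcripts gave different ratios in deep and other nuclei. *Cox1* had a log2 ratio of 0.59 in the deepest 20% and −0.18 in the other nuclei, *Cox3* had 0.77 and 0.02, and *Mt-nd1* had 0.72 and 0.18. The deepest 20% began at 1222 UMIs in Rom 6 HPA and at 1526 UMIs at 0 HPA. The difference in ratios between the parts was not tested.

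Among lower genes, *Cxcl2*, a chemokine, stood out by its order, with 1.36 CPM in Rom 6 HPA, 5.57 CPM in Cont 6 HPA and 2.92 CPM at 0 HPA. *Ccl28*, another chemokine, had 8.14, 3.34 and 16.9 CPM, which is the order of *Elf3*. Both were picked here after their values were seen, and *Cxcl2* passed the filter only through 0 HPA and so had to differ between Rom 6 HPA and 0 HPA.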
